A study of Mus musculus with 6 samples.

Results

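The p53 pathway is described here through 32 named genes: the gene of p53 itself (Trp53), its regulators in a feedback loop, and genes that p53 is known to switch on. The members were taken from a list of gene symbols and sorted by known role into feedback (6 genes), arrest (4), apoptosis (13), DNA repair (5) and metabolism (4). All 32 symbols were present among the 24411 in the count files, and 31 of them entered the test, which covered 13076 genes. The member left out for low counts was Perp, whose product is a membrane protein of desmosomes linked to p53-driven death.

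p53 is a transcription factor that is held low by the ubiquitin ligase Mdm2, and Mdm2 is itself a p53 target, which closes a feedback loop. When DNA damage, nucleolar stress or other insults free p53, it raises genes that halt the cell cycle, repair DNA, trigger the mitochondrial or receptor routes of apoptosis, or slow growth signals. Its activity is set mostly at the level of the protein, which read counts do not measure. In muscle cells p53 and its target Cdkn1a have been linked to exit from the cell cycle during differentiation and to wasting.

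RNA came from the mouse line C2C12, immortal myoblasts that were made to fuse into myotubes in medium with 2% horse serum; the labels still give the cell type as myoblasts. Fully differentiated WT myotubes received 10 µM Sardomozide dihydrochloride for 72 h (3 libraries) or the solvent DMSO for 72 h (3 libraries). Sardomozide blocks the polyamine enzyme made from Amd1 (S-adenosylmethionine decarboxylase), and the comparison asks what that inhibition does to transcripts of myotubes. All libraries are from 1 cell line, and no source used here says whether replicates were separate cultures. The p-values therefore reflect spread among libraries that may be technical in origin.

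Totals were 30820423 to 36709804 counts in the Sardomozide libraries and 25496323 to 32108033 in the DMSO libraries. Levels are CPM, the counts of a gene scaled to a common library total, with library sizes scaled by TMM, and errors after CPM values are SDs over 3 libraries. Amd1 had 0, 0 and 0 counts in the Sardomozide libraries and 0, 3 and 0 in the DMSO libraries, so it gives no check of the labels. The rule for reads with several matches is not given in the sources used here, so these counts do not show that Amd1 is silent. The first principal component (39.8% of the variance) separated the groups, and DMSO replicate 1 lay away from the other DMSO libraries along the next one (16.5%). Myotube markers were abundant in all 6 libraries, with Acta1, the skeletal actin gene, at 4710 to 4910 CPM with Sardomozide and 4630 to 4990 CPM with DMSO. The myoblast markers Pax7 and Cdh15 were present as well, at 87.8 to 100 and 574 to 617 CPM with Sardomozide and 85 to 89.8 and 634 to 654 CPM with DMSO. In RNA from whole cultures, fewer cells of a type and less RNA per cell cannot be told apart.

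In myotubes given Sardomozide, 11 of the 31 tested p53 pathway genes rose, 3 fell and 17 did not pass edgeR's quasi-likelihood test at an adjusted p of 0.05. Over all genes tested, 16.3% passed in either direction, 7.88% as rises and 8.45% as falls. The share among the p53 pathway genes was 45.2%. These genes were chosen with earlier results of these data known, so their share may not be independent of that choice. Members that rose were Ccng1, Aen, Eda2r, Plk2, Ei24, Trp53inp1, Gadd45a, Xpc, Zmat3, Bax and Polk, and those that fell were Phlda3, Ddit4l and Sesn1. All changes were modest: the estimates ran from 0.658-fold for Ddit4l to 1.45-fold for Ccng1, with a median log2 fold change of 0.066 over the 31 members and −0.001 over all genes tested. The CPM ranges of the groups did not overlap for 12 members that were higher and 4 that were lower, where 17% and 16.5% of all genes tested did the same (33.5% in either direction). An unadjusted p under 0.05 was found for 15 members, against 29.6% of all genes tested. Summed over the 32 members, the level was 2436, 2364 and 2370 CPM with Sardomozide and 2154, 2136 and 2154 CPM with DMSO. Leaving out any 1 library left 9 to 11 members higher and 2 or 3 lower.

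**Figure D1:**
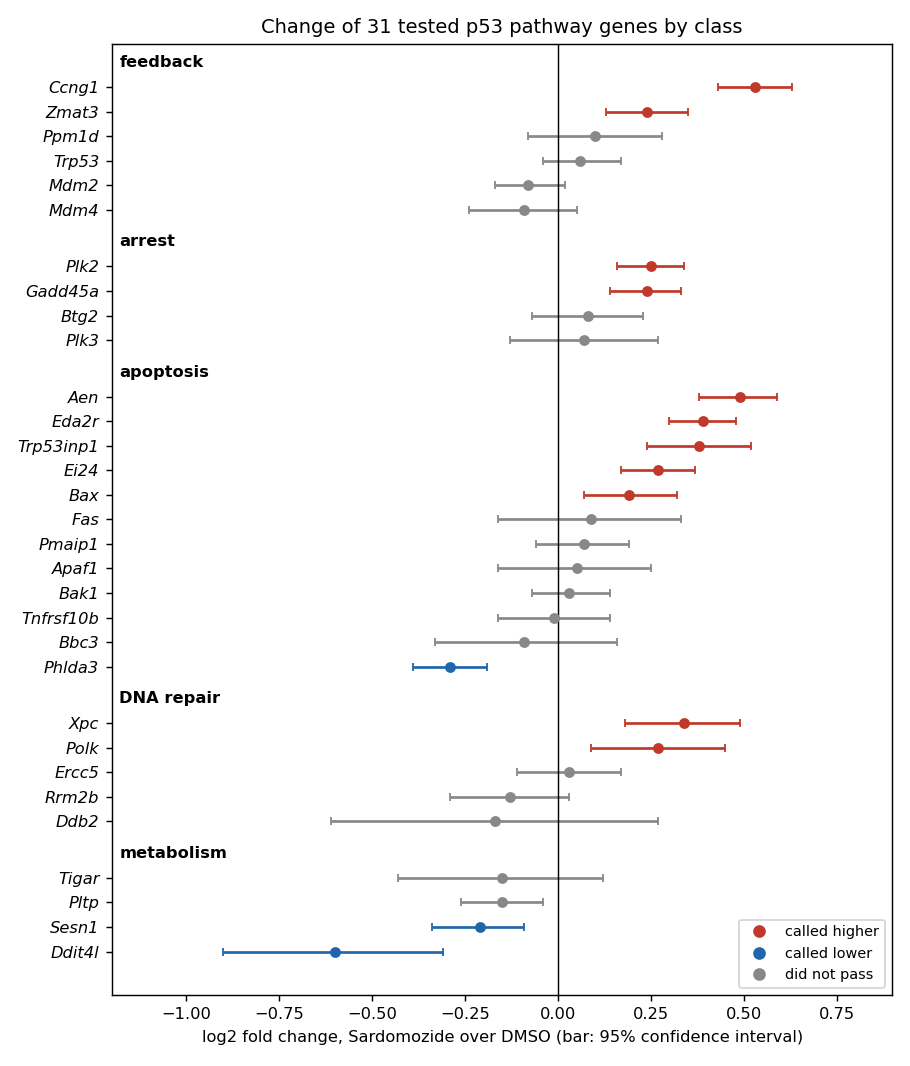
Log2 fold change of Sardomozide over DMSO (horizontal axis) for the 31 tested p53 pathway genes, grouped by class and sorted within it; points are edgeR estimates, bars 95% confidence intervals, red called higher, blue called lower, grey did not pass. Rises reach 0.53 for Ccng1, falls reach −0.60 for Ddit4l, and all 4 metabolism genes lie left of 0.

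**Figure D2:**
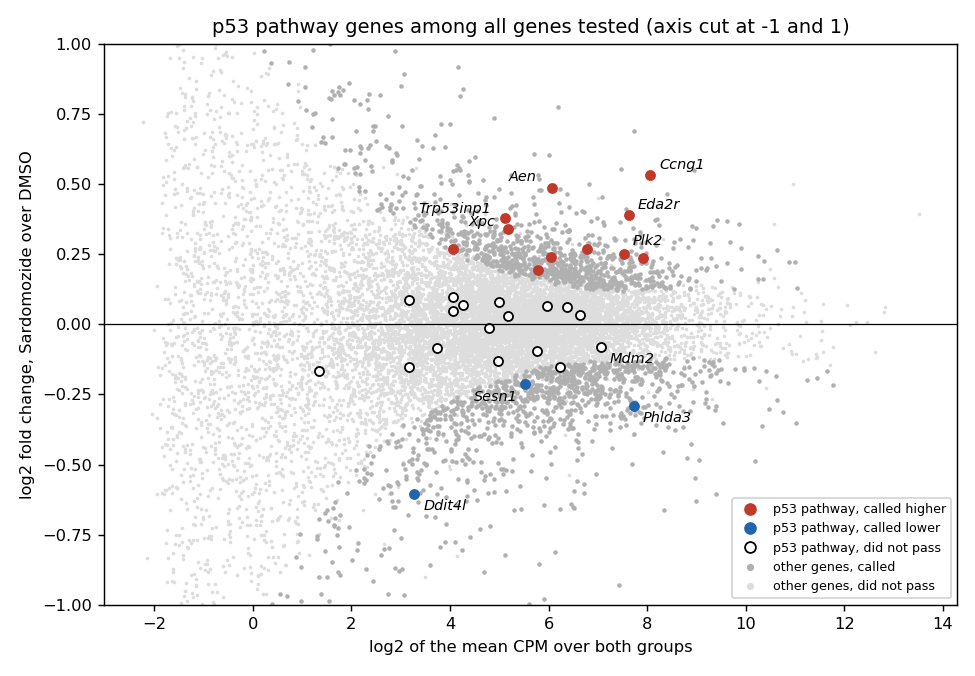
Log2 fold change of Sardomozide over DMSO (vertical axis, cut at −1 and 1) against log2 mean CPM (horizontal axis) for all 13076 genes tested; large points are p53 pathway genes, small points other genes, darker where called. Ccng1 at 0.53 and Ddit4l at −0.60 lie farthest from 0 among the members.

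The promoters of members were searched for the p53 decamer, the 10-base consensus that p53 binds, usually as a pair. The search used the 250 bases before each RefSeq start on GRCm38.p6, and because the consensus reads the same on both strands 1 pass covers both. Windows were at hand for 24 of the 32 members. Of these 24, 11 (45.8%) held an exact decamer, against 8.2% of all 27025 genes with a window. The members were listed as known p53 genes, so a larger share than among all genes, here and for pairs, can come from the list alone. A gene with several RefSeq starts had several windows (32851 over all genes) and was counted if any of them held a match. A decamer stood before a RefSeq start of 6 of 8 members that rose, 2 of 3 that fell and 3 of 13 that did not pass. Such a start can lie inside the annotated gene: the sites of Sesn1, Polk, Ddit4l, Aen, Ei24 and Gadd45a fall within the gene's own coordinates. Around the sites of Aen, Ei24 and Gadd45a, 100 of 100, 55 of 55 and 50 of 85 bases are exon of the same gene. A pair of decamers with at most 2 mismatches in all and at most 3 bases between them was found for 4 of the 24 (16.7%), against 3.53% of all genes: Ccng1, Bax and Polk, which rose, and Sesn1, which fell. Such a match describes letters only, and p53 sites outside this window, such as those known in the first intron of Mdm2, were not searched. Windows around the sites of 2 genes that rose, 2 that fell and 2 that did not pass are given 5′ to 3′ on the gene's strand, with the decamer or pair in capitals, so that the letters can be set beside the changes that follow.
Ccng1, chr11:40755417-40755526, minus strand, rose: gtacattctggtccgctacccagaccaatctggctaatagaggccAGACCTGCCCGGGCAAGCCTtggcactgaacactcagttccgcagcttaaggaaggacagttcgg
Bax, chr7:45467045-45467148, minus strand, rose: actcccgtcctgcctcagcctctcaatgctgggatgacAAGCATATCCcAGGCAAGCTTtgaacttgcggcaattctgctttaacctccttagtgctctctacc
Sesn1, chr10:41887208-41887320, plus strand, fell: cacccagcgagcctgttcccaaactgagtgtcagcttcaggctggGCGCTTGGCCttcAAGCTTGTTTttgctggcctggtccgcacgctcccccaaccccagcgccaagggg
Ddit4l, chr3:137623537-137623636, plus strand, fell: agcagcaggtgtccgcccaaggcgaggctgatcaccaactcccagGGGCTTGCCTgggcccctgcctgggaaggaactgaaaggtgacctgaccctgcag
Mdm2, chr10:117710890-117710989, minus strand, did not pass: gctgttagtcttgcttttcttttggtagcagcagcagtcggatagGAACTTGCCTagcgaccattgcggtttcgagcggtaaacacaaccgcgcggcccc
Ppm1d, chr11:85311077-85311176, plus strand, did not pass: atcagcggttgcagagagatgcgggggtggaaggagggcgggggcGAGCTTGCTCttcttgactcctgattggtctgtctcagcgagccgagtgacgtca
The pair before Ccng1 has no base between its decamers and 1 mismatch, starts 195 bases before the transcript, and is the closest to consensus, with that before Bax (1 mismatch, 1 base between) and that before Polk (1 mismatch, 1 base between). Single decamers of the other members were GGGCTTGTCC for Aen, GGGCATGCCC for Ei24 and GGGCTAGCCC for Gadd45a, all of which rose, and GGACTTGCCC for Trp53, which did not pass.

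Of the 6 feedback genes, Ccng1 and Zmat3 rose and Trp53, Mdm2, Mdm4 and Ppm1d did not pass. Ccng1 encodes cyclin G1, which brings an activating phosphatase to Mdm2. Its gene (chromosome 11, 40748552 to 40755311, GRCm38) had 331, 308 and 310 CPM in the Sardomozide libraries, against 204, 225 and 227 CPM in the DMSO libraries. All 3 Sardomozide libraries lay above all 3 DMSO libraries, and the log2 fold change was 0.53 ± 0.048 (SE, n = 3 each; edgeR adjusted p = 2e-07), a rise of 44.8%. By p-value it ranked 26 among the 13076 genes tested and first among the members. Zmat3, which encodes an RNA-binding zinc finger protein (chromosome 3, 32334792 to 32366014), had 67.3, 76 and 72.4 CPM with Sardomozide, against 61.2, 60.6 and 60.9 CPM with DMSO. Here too the groups did not overlap, and the DMSO libraries had a coefficient of variation of 0.535% (log2 fold change 0.24 ± 0.054, edgeR adjusted p = 0.004).

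Mdm2, the ligase gene that is the best known p53 feedback target, had 135, 124 and 130 CPM with Sardomozide, against 137, 133 and 141 CPM with DMSO. The groups overlapped, and its log2 fold change of −0.08 ± 0.046 did not pass (95% interval −0.17 to 0.02, edgeR adjusted p = 0.259). Trp53 had 82, 85.3 and 85.9 CPM with Sardomozide and 83.8, 82.1 and 76.4 CPM with DMSO. Its interval was −0.04 to 0.17. Mdm4, whose product also restrains p53, and Ppm1d, the gene of the Wip1 phosphatase, did not pass either (−0.09 ± 0.069, adjusted p = 0.391 by edgeR, and 0.10 ± 0.086, adjusted p = 0.493). For Ppm1d the libraries ran from 16.6 to 17.5 CPM with Sardomozide and from 15.4 to 16.6 CPM with DMSO, and the closest libraries of the groups were equal after rounding. The count of Ccng1 over that of Mdm2 within each library, which does not depend on library scaling, was 2.44 ± 0.054 with Sardomozide and 1.59 ± 0.106 with DMSO (SD, n = 3). This pair was picked after its values were seen and is given without a test. Ratios of Plk2 over Plk3, Bax over Bak1, Bax over Bcl2l1 and Mdm2 over Trp53, taken the same way, overlapped between the groups.

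**Figure D3:**
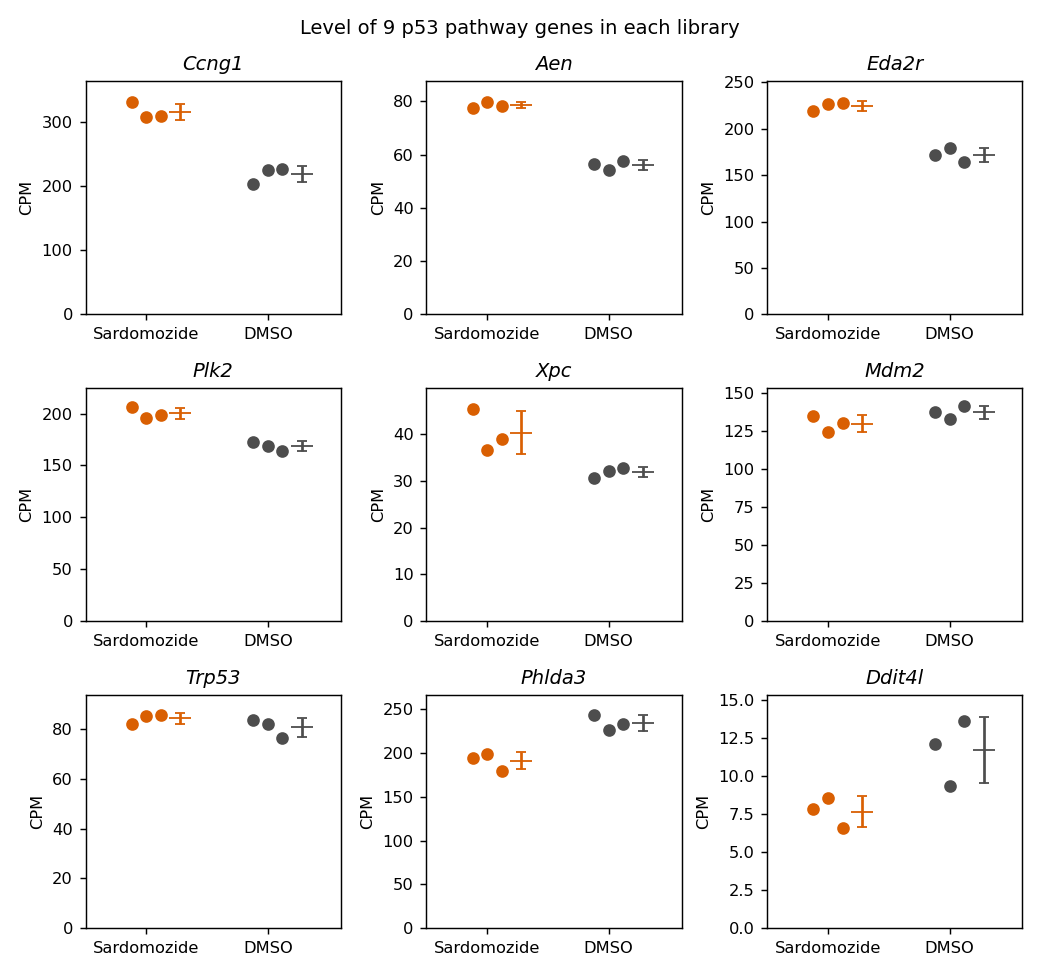
CPM in each of the 3 Sardomozide libraries (orange, left) and 3 DMSO libraries (grey, right) for 9 p53 pathway genes; dots are libraries, the bar beside them the mean with its SD, and every vertical axis starts at 0. Ccng1, Aen, Eda2r, Plk2 and Xpc are higher in every Sardomozide library, Phlda3 and Ddit4l lower, and Mdm2 and Trp53 overlap.

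Among the 4 arrest genes, Plk2 and Gadd45a rose and Btg2 and Plk3 did not pass. Plk2, a polo-like kinase gene that acts in stress checkpoints and centriole duplication (chromosome 13, 110395046 to 110400844), had 206, 196 and 199 CPM with Sardomozide, against 173, 169 and 164 CPM with DMSO. The libraries of the groups did not overlap (log2 fold change 0.25 ± 0.042, edgeR adjusted p = 0.000369). Gadd45a, a stress gene whose product takes part in arrest and DNA repair (chromosome 6, 67035096 to 67037457), had 270, 249 and 266 CPM with Sardomozide, against 231, 221 and 215 CPM with DMSO. It rose by 17.7% (log2 fold change 0.24 ± 0.045, edgeR adjusted p = 0.00104). Its exons overlap an opposite-strand transcript over 337 bases, and whether counting used strand is not given in the sources used here. The same limit holds for Plk3, Bak1, Ddb2, Rrm2b, Tigar, Pltp and Cdkn1a, whose exons also overlap a gene on the opposite strand. Btg2, an antiproliferative gene, had 30.8 to 35.4 CPM with Sardomozide and 29.4 to 32 CPM with DMSO, and Plk3, a second stress kinase of the polo family, 17.4 to 21.1 CPM and 17.2 to 21.1 CPM. Both had intervals that span 0 (−0.07 to 0.23 for Btg2 and −0.13 to 0.27 for Plk3), and that of Plk3 also holds the estimate of Plk2.

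Apoptosis was the largest class, with 12 tested genes of which 5 rose, 1 fell and 6 did not pass. The genes that rose were Aen, Eda2r, Trp53inp1, Ei24 and Bax. Aen encodes a nuclease that cuts nucleic acid in dying cells and also acts in the nucleolus (chromosome 7, 78895854 to 78911209). It had 77.7, 79.9 and 78.3 CPM with Sardomozide, against 56.4, 54.3 and 57.8 CPM with DMSO. The groups were far apart relative to their spread, and the gene rose by 40% (log2 fold change 0.49 ± 0.05, edgeR adjusted p = 1.52e-06). Eda2r, a receptor gene of the tumour necrosis factor receptor family that binds an ectodysplasin isoform (chromosome X, 97333840 to 97377216), had 219, 227 and 228 CPM with Sardomozide, against 172, 179 and 164 CPM with DMSO. No DMSO library reached the lowest Sardomozide library (log2 fold change 0.39 ± 0.044, edgeR adjusted p = 4.7e-06). Trp53inp1, whose nuclear protein promotes death and autophagy (chromosome 4, 11156431 to 11174379), had 36.7, 40.4 and 41 CPM with Sardomozide, against 28.4, 29.9 and 32.4 CPM with DMSO. It rose by 30% (log2 fold change 0.38 ± 0.069, edgeR adjusted p = 0.000714).

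Ei24, the gene of an endoplasmic reticulum membrane protein needed for autophagy (chromosome 9, 36779159 to 36797393), had 125, 118 and 119 CPM with Sardomozide, against 97.8, 105 and 97.2 CPM with DMSO. The groups were separate (log2 fold change 0.27 ± 0.046, edgeR adjusted p = 0.000404), and 324 bases of its exons overlap an antisense gene. Bax, which encodes the pore-forming protein of the mitochondrial route (chromosome 7, 45461697 to 45466898), had 56.2, 63.6 and 57.6 CPM with Sardomozide, against 49.1, 53.2 and 52.9 CPM with DMSO. It rose by 14.3% (log2 fold change 0.19 ± 0.059, edgeR adjusted p = 0.0303), the smallest rise among the called members. That call was lost without Sardomozide replicate 2 or DMSO replicate 1, 2 or 3 (edgeR adjusted p = 0.141, 0.151, 0.0501 and 0.057), and 192 bases of its exons overlap another gene on the same strand.

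Phlda3 was the apoptosis gene that fell. Its product, a p53 target with a pleckstrin homology domain, blocks the survival kinase AKT (chromosome 1, 135766119 to 135769136). It had 195, 199 and 180 CPM with Sardomozide, against 244, 226 and 233 CPM with DMSO. Every Sardomozide library was lower than every DMSO library, and the gene fell by 18.2% (log2 fold change −0.29 ± 0.047, edgeR adjusted p = 0.000198). The 6 genes of this class that did not pass were the BH3-only genes Bbc3 and Pmaip1, the pore gene Bak1, the apoptosome gene Apaf1 and the death receptor genes Fas and Tnfrsf10b, with log2 fold changes between −0.09 and 0.09. Bbc3 had 15.3, 11.8 and 11.7 CPM with Sardomozide, against 12.1, 14.5 and 14.4 CPM with DMSO. Sardomozide replicate 1 was the highest of all 6 libraries and the other Sardomozide libraries the lowest, and the 95% interval of −0.33 to 0.16 was wide. Pmaip1 had an interval of −0.06 to 0.19 and Bak1 one of −0.07 to 0.14. Fas ran from 8.94 to 9.68 CPM with Sardomozide and 7.75 to 9.29 CPM with DMSO, and its interval of −0.16 to 0.33 could hold a rise as large as that of Bax. Perp had 7, 11 and 8 counts with Sardomozide and 4, 4 and 8 counts with DMSO, too few for the test.

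**Figure D4:**
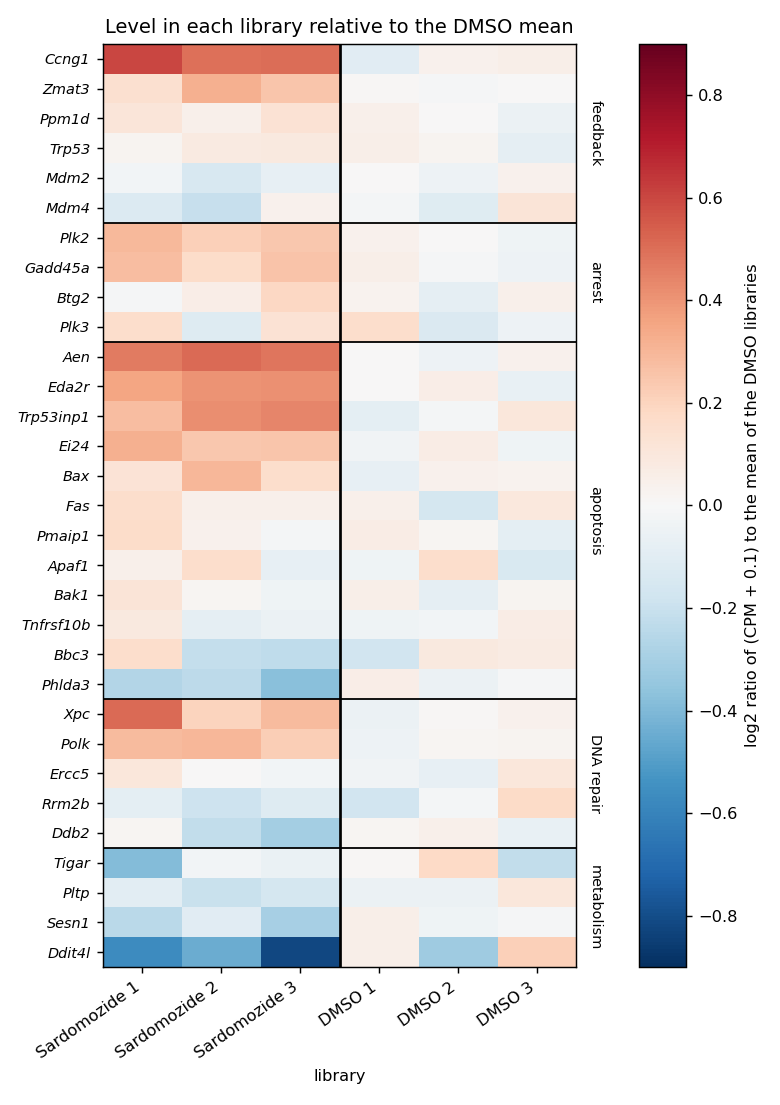
Level of the 31 tested p53 pathway genes (rows, grouped by class) in each library (columns, Sardomozide left and DMSO right) as the log2 ratio of CPM + 0.1 to the mean of the DMSO libraries; red is higher and blue lower. Aen, Eda2r and Ccng1 are evenly red across the Sardomozide libraries, Xpc is strongest in Sardomozide replicate 1, and Ddit4l is blue in all 3 Sardomozide libraries and also in DMSO replicate 2.

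In the DNA repair class Xpc and Polk rose and Ddb2, Ercc5 and Rrm2b did not pass. Xpc encodes the protein that recognises bulky lesions at the start of nucleotide excision repair (chromosome 6, 91489305 to 91515888). It had 45.5, 36.7 and 38.9 CPM with Sardomozide, against 30.7, 32.2 and 32.8 CPM with DMSO. Sardomozide replicate 1 was the highest, but the groups did not overlap (log2 fold change 0.34 ± 0.074, edgeR adjusted p = 0.00349), and the call held when any 1 library was left out, with log2 fold changes of 0.24 to 0.40 over all settings. Polk, a translesion DNA polymerase gene (chromosome 13, 96480690 to 96542579), had 18.5, 18.7 and 17.7 CPM with Sardomozide, against 14.7, 15.3 and 15.5 CPM with DMSO. It rose by 20.6% (log2 fold change 0.27 ± 0.085, edgeR adjusted p = 0.0344), but its call was lost in 5 of the 6 fits that left out a library. Without Sardomozide replicate 1 or 2 or DMSO replicate 1, 2 or 3 the edgeR adjusted p was 0.0686, 0.0856, 0.12, 0.0816 and 0.0761, and DESeq2 gave an adjusted p of 0.0522. Ddb2, a sensor of ultraviolet lesions, had 2.15 to 2.71 CPM with Sardomozide and 2.55 to 2.77 CPM with DMSO. At this low level its interval of −0.61 to 0.27 is the widest of any member and holds the estimates of all 3 members that fell. Ercc5, the gene of an excision repair nuclease, had an interval of −0.11 to 0.17, and Rrm2b, a p53-controlled subunit of ribonucleotide reductase, one of −0.29 to 0.03.

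In the metabolism class Ddit4l and Sesn1 fell, and Tigar and Pltp had estimates below 0 without passing. Ddit4l, whose product restrains the growth kinase complex mTORC1 (chromosome 3, 137621612 to 137628333), had 7.84, 8.56 and 6.56 CPM with Sardomozide, against 12.1, 9.34 and 13.6 CPM with DMSO. The highest Sardomozide library was still under the lowest DMSO library, DMSO replicate 2, and the gene fell by 34.2% (log2 fold change −0.60 ± 0.14, edgeR adjusted p = 0.00525). This was the largest change among the members and had the largest SE of the called members, with log2 fold changes of −0.75 to −0.48 over all settings. Sesn1, a sestrin gene whose protein also holds back mTORC1 and limits oxidative stress (chromosome 10, 41809935 to 41908424), had 41.6, 45.8 and 40 CPM with Sardomozide, against 51, 48 and 48.8 CPM with DMSO. It fell by 13.8% (log2 fold change −0.21 ± 0.062, edgeR adjusted p = 0.0211). Without Sardomozide replicate 1 or 3 or DMSO replicate 1 or 3 its edgeR adjusted p was 0.0566, 0.101, 0.101 and 0.0542. Pltp, a phospholipid transfer protein gene, had 74.1, 68.9 and 70.7 CPM with Sardomozide, against 76.1, 76.2 and 84.8 CPM with DMSO. These libraries did not overlap either, but the log2 fold change of −0.15 ± 0.054 did not pass (edgeR adjusted p = 0.0617) except without Sardomozide replicate 1 (0.0416) and with no filter on low counts (0.045). Tigar, the gene of a fructose bisphosphatase that diverts glucose to the pentose phosphate pathway, had an interval of −0.43 to 0.12.

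Levels were compared between genes as CPM per kilobase of annotated exon. In both groups Gadd45a and Phlda3 were the most abundant members, with 148 and 123 CPM per kilobase with Sardomozide and 126 and 150 with DMSO. Phlda3 stood first with DMSO and Gadd45a first with Sardomozide, as their changes ran in opposite directions. Ccng1 followed with 90.1 and 62.2 CPM per kilobase, and Trp53 itself had 20.9 and 20. At the low end were Apaf1 (1.88 and 1.82), Ddb2 (0.87 and 0.979) and Perp (0.131 and 0.094), each with the Sardomozide value before the DMSO value. Cdkn1a, the best known p53 target and no member here, had 623 CPM per kilobase with Sardomozide and 535 with DMSO, above every member.

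Other genes of the pathway were described from lists. Of 33 other known p53 targets 31 were tested: 4 rose, 4 fell and 23 did not pass. The share called was 25.8% (12.9% higher and 12.9% lower), against 16.3% of all genes tested (7.88% higher and 8.45% lower). Their median log2 fold change was 0.003. Cdkn1a, the gene of the cell cycle inhibitor p21, had 2180, 2200 and 2260 CPM with Sardomozide, against 1820, 1910 and 1960 CPM with DMSO. The groups did not overlap (log2 fold change 0.22 ± 0.045, edgeR adjusted p = 0.00178). Traf4, which encodes a receptor adaptor, rose from the same list (258 ± 1.45 CPM with Sardomozide and 207 ± 9.17 CPM with DMSO, edgeR adjusted p = 3.84e-05). Rps27l and Triap1 rose as well, with weaker calls (edgeR adjusted p = 0.0203 and 0.045). Cmbl, a hydrolase gene, fell (7.52 ± 0.196 CPM with Sardomozide and 10.6 ± 0.806 CPM with DMSO, edgeR adjusted p = 0.00556). Steap3, Hspa4l and Susd6 fell as well (edgeR adjusted p = 0.0196, 0.0281 and 0.0465). The call for Steap3 was lost without Sardomozide replicate 1 or 3 or DMSO replicate 1. These counts moved with single libraries: 2 rose without DMSO replicate 1 or 3, 2 fell without Sardomozide replicate 1 or DMSO replicate 2 or 3, and 1 fell without Sardomozide replicate 3 or DMSO replicate 1. By DESeq2 and by limma-voom 3 rose and 4 fell, and with no filter 5 rose and 3 fell.

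Regulators upstream of p53 were listed as well. Of 23 tested regulators 0 rose and 2 fell by edgeR (8.7% called, against 16.3% of all genes tested). An unadjusted p under 0.05 was found for 8 regulators, against 29.6% of all genes tested. The groups did not overlap for 5 that were higher and 3 that were lower, where 17% and 16.5% of all genes tested did the same. DESeq2 and limma-voom also called 0 rises, while 1 regulator rose without Sardomozide replicate 3 and 1 with no filter on low counts. The number that fell was 3 with no filter, with the stricter filter and without Sardomozide replicate 1 or 2. It was 1 without Sardomozide replicate 3 or DMSO replicate 2 or 3. Trp63, the gene of the p53 relative p63, had 42, 38.1 and 40.4 CPM with Sardomozide, against 49.5, 52.9 and 51.1 CPM with DMSO. All Sardomozide libraries were lower (log2 fold change −0.35 ± 0.059, edgeR adjusted p = 0.000345). Hipk2, a kinase gene that activates p53, fell as well (−0.20 ± 0.056, edgeR adjusted p = 0.0185), a call lost without Sardomozide replicate 3 or DMSO replicate 2 or 3 (0.111, 0.0936 and 0.055). Atm, the kinase gene of the double-strand break response, did not pass (0.22 ± 0.077, edgeR adjusted p = 0.0595). Cdkn2a, which encodes the Mdm2 inhibitor ARF, and Trp73 had 0 counts in all 6 libraries, where a count of 0 allows 0.0823 to 0.118 CPM.

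Among 19 tested death genes outside the members, 3 rose and 2 fell (26.3% called, against 16.3% of all genes tested). Bid, which links death receptors to Bax and Bak1, had 43.3, 44.2 and 43.4 CPM with Sardomozide, against 30.5, 33.6 and 30.6 CPM with DMSO. It rose by 38.2%, a change close in size to that of Aen (log2 fold change 0.47 ± 0.062, edgeR adjusted p = 3.39e-05), and 628 bases of its exons overlap Bcl2l13 on the opposite strand. Cycs, the cytochrome c gene, and the survival gene Bcl2l1 rose (0.23 ± 0.05 and 0.20 ± 0.048), and the survival gene Bcl2l2 fell (−0.21 ± 0.061; edgeR adjusted p = 0.00305, 0.00644 and 0.0219). Casp8, an initiator caspase gene, was the other that fell (−0.31 ± 0.091, edgeR adjusted p = 0.0247). Exons of Bcl2l2 overlap another gene on the same strand over 594 bases. The number of death genes that fell was 1 in each fit that left out a library, except 2 without Sardomozide replicate 3, and Casp8 was the gene that lost its call without Sardomozide replicate 1 or DMSO replicate 1. The call for Bcl2l2 was lost without Sardomozide replicate 2 or DMSO replicate 2 or 3 (0.104, 0.0744 and 0.078). Counts of Bax over those of Bcl2l1, a pair picked after values were seen, were 0.72 ± 0.0595 with Sardomozide and 0.722 ± 0.0392 with DMSO, and their means differed by less than their spread.

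Of 18 other excision repair and translesion genes 0 rose and 2 fell by edgeR, Xpa and Rev3l. That is 11.1% called, against 16.3% of all genes tested. An unadjusted p under 0.05 was found for 2, against 29.6% of all genes tested. DESeq2 and limma-voom gave the same counts of calls. Xpa, which verifies lesions after Xpc, had 8.69, 9.49 and 8.16 CPM with Sardomozide, against 11.5, 10.8 and 12.9 CPM with DMSO (log2 fold change −0.41 ± 0.11, edgeR adjusted p = 0.0156). Both calls were lost without Sardomozide replicate 3 or DMSO replicate 3, and that for Rev3l also without Sardomozide replicate 1 or DMSO replicate 2. Of 16 tested paralogues of members 2 rose and 2 fell (25% called, against 16.3% of all genes tested). Sesn3, a sestrin like Sesn1, fell to 37.4 ± 0.925 CPM with Sardomozide, against 48.7 ± 3.77 CPM with DMSO (log2 fold change −0.38 ± 0.064, edgeR adjusted p = 0.000324). The remaining sestrin Sesn2, which the list of other p53 targets also holds, had an estimate above 0 that did not pass (0.22 ± 0.077, edgeR adjusted p = 0.0574), and Ddit4, the paralogue of Ddit4l, had 31.1 CPM in both groups. Rrm2, the replicative paralogue of Rrm2b, and Ppm1b rose, and Bok fell. The call for Ppm1b was lost without Sardomozide replicate 1 or any 1 DMSO library, that for Bok without Sardomozide replicate 3 or any 1 DMSO library, and that for Rrm2 without DMSO replicate 3. With the replicate number as a block, Ppm1b and Bok did not pass (edgeR adjusted p = 0.0548 and 0.0528), which left 1 paralogue higher and 1 lower.

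**Figure D5:**
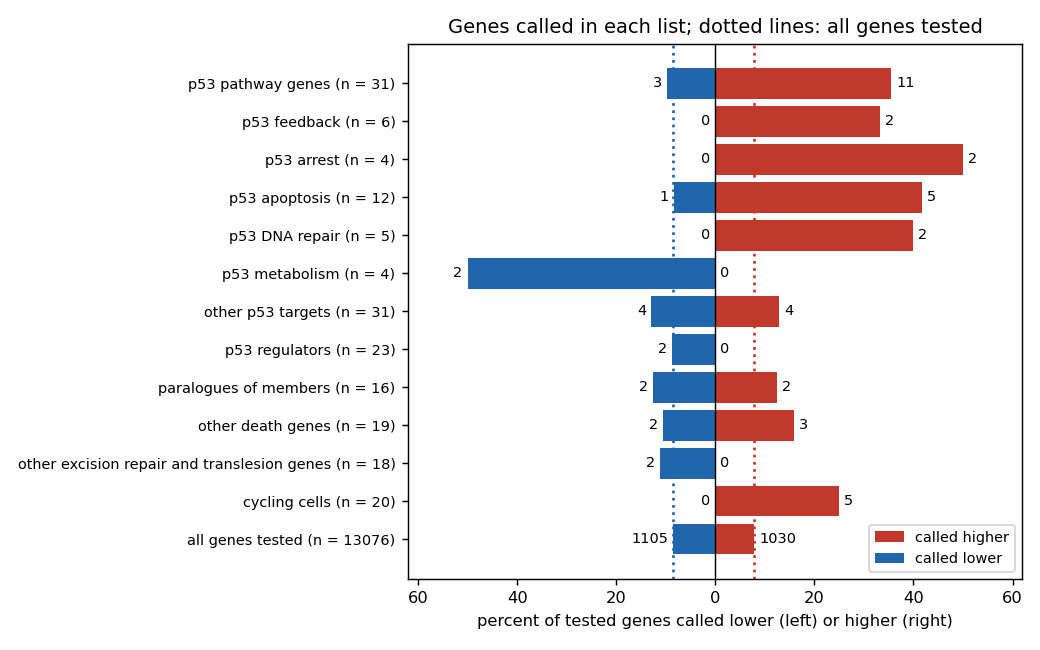
Percent of tested genes called higher (red, right) or lower (blue, left) in Sardomozide libraries for the p53 pathway genes, their 5 classes, the other lists and all genes tested, with the number of genes at each bar; dotted lines mark all genes tested (7.88% higher and 8.45% lower). The p53 pathway genes reach 11 higher and 3 lower, while the other p53 targets have 4 of each.

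Of 20 markers of cycling cells 5 rose (Mki67, Bub1, Tpx2, Mcm2 and Rrm1), or 25% against 7.88% of all genes tested. By edgeR 15 did not pass and 0 fell, and DESeq2 and limma-voom also called 0 falls. An unadjusted p under 0.05 was found for 9 of these markers, against 29.6% of all genes tested. Without Sardomozide replicate 2 or 3 or DMSO replicate 2 the number that rose was 3, and without DMSO replicate 1 it was 2. The number was 4 without DMSO replicate 3 or by limma-voom, 6 with no filter and 7 without Sardomozide replicate 1. The call for Mcm2 was lost without Sardomozide replicate 2 or 3 or DMSO replicate 1 or 2. That for Bub1 was lost without Sardomozide replicate 2 or DMSO replicate 1. Without Sardomozide replicate 2 or DMSO replicate 2, 1 marker fell. Their summed level was 801 to 911 CPM with Sardomozide and 774 to 814 CPM with DMSO, and the ranges overlap. The summed level of 5 myoblast markers was 2550 to 2700 CPM with Sardomozide and 2790 to 2860 CPM with DMSO, with 0 of 5 called by edgeR. That sum was mostly of Itga7, at 1930, 1800 and 1900 CPM with Sardomozide and 2010, 2030 and 1980 CPM with DMSO. Cdh15 was also lower in every Sardomozide library, while Pax7, Myf5 and Vcam1 overlapped between the groups. Of the 10 myotube markers 9 were tested and 1 rose, where 7.88% of all genes tested rose and 8.45% fell. Mymk was not among the symbols counted. Myog, which encodes myogenin, a driver of muscle differentiation, rose, with 1340, 1340 and 1260 CPM with Sardomozide, against 1100, 1100 and 1120 CPM with DMSO (edgeR adjusted p = 0.000547). Actn2 was lower in every Sardomozide library (209, 166 and 168 CPM, against 225, 264 and 224 CPM with DMSO) but did not pass. The remaining tested myotube markers overlapped between the groups. The summed level of the 9 tested myotube markers was 18100 to 21000 CPM with Sardomozide and 18000 to 19200 CPM with DMSO. The highest sum was in Sardomozide replicate 2, where Ttn had 4040 CPM, against 1610 and 1370 CPM in Sardomozide replicates 1 and 3. With DMSO Ttn had 1500 to 1740 CPM. Of the 5 fibroblast markers 3 were tested and 1 fell, the matrix gene Dcn, with 8.53, 11.2 and 13.3 CPM with Sardomozide, against 20.7, 19.2 and 16.4 CPM with DMSO (edgeR adjusted p = 0.00187). Their summed level, mostly of the collagen gene Col3a1, was 5450 to 5890 CPM with Sardomozide and 5030 to 6020 CPM with DMSO, and Lum and Thy1 were under 0.1 CPM. Of the 5 osteoblast markers 2 were tested and 1 rose, Bglap, at 0.329 to 0.448 CPM with Sardomozide and 0.0335 to 0.125 CPM with DMSO, while their sum, mostly of Runx2, was 49.9 to 50.4 CPM with Sardomozide and 52.8 to 54.4 CPM with DMSO, and Ibsp was at 0 counts. The summed level of 5 macrophage markers was 5.1 to 5.84 CPM with Sardomozide and 4.83 to 5.86 CPM with DMSO, with Cd14 and Cd68 present and Adgre1 and Ptprc at 0 counts. That of 5 endothelial markers was 0.643 to 0.896 CPM with Sardomozide and 0.59 to 1.07 CPM with DMSO, with Emcn at 0 counts. Of the 5 adipocyte markers Adipoq, Plin1, Cidec and Lep were at 0 counts in all libraries and Fabp4 was at most 0.0548 CPM. The part of cycling cells, unfused cells, degree of differentiation or fibroblast-like cells in the changes of p53 pathway genes was not tested.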

How the data were processed

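The authors deposited raw read counts per gene symbol, 1 table for each of 6 libraries, with no header or summary lines. The submitters' processing notes name GRCm38 and mm10 as builds and list DESeq2, STAR and StringTie as tools. Their versions and roles, the annotation, strand use and the rule for reads with several matches: not given in the sources used here. Per the labels' protocols, libraries were read as 150-base pairs on an Illumina NovaSeq. Genes were filtered with filterByExpr (10 counts scaled to library size, 15 in total), scaled by TMM and compared with edgeR 4.0.16 in R 4.3.3 (glmQLFit, robust, two-sided), with Benjamini-Hochberg adjustment over 13076 genes and a threshold of 0.05. Standard errors are the fold change over the root of edgeR's F. Depth gives a floor of 3 counts for a count of 0, which covers counting error only. Replicate pairs differed by more than sampling noise (chi-square per degree of freedom 5.45 to 16.1), and all libraries were kept. Alternatives used DESeq2 1.42.0, limma-voom (limma 3.58.1), other scalings and filters, a replicate block and leaving out each library. Coordinates and exon lengths came from GENCODE M21, and promoter sequences from RefSeq on GRCm38.p6. The steps were tested on simulated counts. The members and lists were chosen with earlier results of these data known. Every member is named; from each other list the rule took up to 4 called genes with the smallest adjusted p, or 2 where none was called, plus Cdkn1a and Amd1. Atm, Sesn2, Ddit4, Rps27l, Triap1, Hspa4l, Susd6, Casp8, Cdkn2a, Trp73, Mki67 and the marker genes outside the lists of cycling cells lie outside that rule; their values had been seen when they were picked.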

Additional observations from a re-analysis of the deposited data

How the results depend on the processing

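Of the 14 members called, 11 kept their call under all 15 alternatives, and Bax, Polk and Sesn1 lost it when some libraries were left out; Polk also lost it with DESeq2 and with the replicate block (adjusted p = 0.0585). Of the 17 that did not pass, 16 never passed, Pltp being the exception. Leaving out 1 library gave 9 to 11 members higher and 2 or 3 lower, 620 to 927 of all genes higher (main count 1030, lowest without DMSO replicate 1 at 620 and DMSO replicate 3 at 672) and 706 to 1025 lower (main count 1105, lowest without DMSO replicate 1), and for the other p53 targets 2 to 5 higher and 1 to 4 lower. Such fits have fewer libraries. Estimates near 0 changed sign for 4 members that did not pass: leaving out 1 library gave −0.009 to 0.069 for Bak1 (below 0 without Sardomozide replicate 1, and −0.006 without DMSO replicate 2), −0.02 to 0.136 for Apaf1 (−0.013 without Sardomozide replicate 2, lowest without DMSO replicate 3), −0.008 to 0.084 for Ercc5 (below 0 without Sardomozide replicate 1 or DMSO replicate 2) and −0.068 to 0.02 for Tnfrsf10b (0.018 and 0.006 without Sardomozide replicate 2 and 3, highest without DMSO replicate 3). Correlations of deviations were 0.022, −0.023 and −0.018 for same-numbered libraries. With 3 libraries in each group these values cannot show whether the replicate numbers pair the samples. With the replicate block 10 members rose and 3 fell, and 855 of all genes rose and 965 fell. In that fit 3 other p53 targets rose and 3 fell, and the paralogues Ppm1b and Bok lost their calls. Scaling moved the median of all genes by at most 0.001 on the log2 scale. Depth limits Perp, which was not tested, and Ddb2.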
